A study of Mus musculus with 12 samples.

Results

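The genes described here were 9 markers of the epicardium and of mesothelium, chosen by symbol from the 20368 genes of the deposited expression table: the transcription regulators *Wt1*, *Tcf21* and *Bnc1*, the surface proteins *Upk3b*, *Upk1b*, *Msln* and *Lrrn4*, and the retinaldehyde dehydrogenases *Aldh1a2* and *Aldh1a1*. Their RNA was followed in whole embryonic hearts of CD1 mice at E11.5 and E12.5. Control hearts were *Mesp1Cre;Hira+/fl* and mutant hearts were *Mesp1Cre;Hira-/fl*, with 3 libraries for each genotype at each stage, 12 in all. All 12 carried *Mesp1Cre* and a floxed *Hira* allele, so control hearts were left with a single functional *Hira* copy in cells of the *Mesp1* lineage and mutant hearts with none there. The null allele of the mutants was constitutive, so their other cells had a single copy as well, unlike those of controls. *Mesp1Cre* is active in early cardiac mesoderm, whose descendants include cardiomyocytes, endothelium and the epicardium. Whether a library held the RNA of 1 heart or of pooled hearts was not given in the sources used here.

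The epicardium is the mesothelial sheet that covers the heart. It is formed by cells of the proepicardium that spread over the myocardium, and some of its cells later leave the surface and become fibroblasts and vascular smooth muscle. WT1 and TCF21 act in these cells, while ALDH1A2 makes the retinoic acid that the epicardium is known to release. Mesothelium of other organs shares most of these markers, so they are not particular to the heart.

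The libraries held between 11994148 and 17483982 gene counts, and the E11.5 mutant replicate 3 was the shallowest. Levels are given as normalized CPM, counts scaled to the effective library size. *Hira* itself averaged 78.1 ± 8.89 CPM in E11.5 controls against 64.7 ± 8.43 CPM in their mutants, and 75.1 ± 13.1 CPM against 73.7 ± 5.19 CPM at E12.5 (SD, n = 3 each); these counts cover the whole gene, including exons outside the deleted part, and do not check the deletion. Counts from 4 Y-linked genes marked all 3 controls but only mutant replicate 3 as male at E11.5, and 1 library of each genotype at E12.5. Sex and genotype therefore overlapped at E11.5, as did sex and stage among controls. Markers of cardiomyocytes, the main cells of the labelled tissue, were present in all libraries (summed level of 10 genes 20870 to 29220 CPM). Summed markers of lung and foregut (7 genes, 0.676 to 21.0 CPM), hepatocytes (8 genes, 23.8 to 94.9 CPM) and skeletal muscle (8 genes, 6.11 to 20.3 CPM) were far lower. *Alb*, the albumin gene, had 0 counts in the E11.5 controls and 6 to 277 in the E12.5 mutants, and the fetal liver gene *Afp* had 2 to 787 counts over the E11.5 libraries. The lung and foregut sum stood apart in E11.5 control replicate 1 (21.0 CPM), E11.5 mutant replicate 1 (14.0 CPM) and E12.5 mutant replicate 3 (16.4 CPM), and was at most 3.86 CPM elsewhere. The hepatocyte sum stood apart in E11.5 mutant replicate 1 (87.7 CPM) and E12.5 mutant replicate 1 (94.9 CPM), against 23.8 to 58.9 CPM elsewhere; values without these libraries are given with each stage.

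All 9 genes were detected in all 12 libraries, with between 102 and 4037 counts each, and all passed the filter on low values in every comparison. In GRCm38, with the coordinates of the deposited table, *Wt1* lies on chromosome 2 from 105126529 to 105173616 (+ strand) and *Lrrn4* on chromosome 2 from 132868305 to 132880891 (- strand). *Upk3b* lies on chromosome 5 from 136038496 to 136045303 (+), *Bnc1* on chromosome 7 from 81966672 to 81992299 (-), *Aldh1a2* on chromosome 9 from 71215789 to 71296243 (+) and *Tcf21* on chromosome 10 from 22817279 to 22820128 (-). *Upk1b* lies on chromosome 16 from 38773184 to 38800203 (-), *Msln* on chromosome 17 from 25748614 to 25754327 (-) and *Aldh1a1* on chromosome 19 from 20601961 to 20643462 (+). *Tcf21* is overlapped over its 2850 bases by the antisense gene *Gm10824*, *Aldh1a2* over 412 bases by the pseudogene *Gm48124* and *Bnc1* over 298 bases by the pseudogene *4833418N17Rik*; since the use of strand in counting was not given, reads of such pairs cannot be told apart. *Aldh1a1* has a near-identical neighbour, *Aldh1a7*, which held 5 to 46 counts, so its own 175 to 846 counts are uncertain by the reads that counting could have split.

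RefSeq promoters of build GRCm38.p6 were found for 6 of the 9 genes (7 promoters). The 3 below are the 250 bases before the start of *Upk3b*, the most abundant gene of the set, *Aldh1a2*, the gene with the lowest mutant to control ratio at E11.5, and *Aldh1a1*, the gene that differed most between stages in controls. Capitals mark the searched motifs, read on both strands. These were the TEAD core GGAATG (held by 12.6% of all 32851 promoters), the nuclear receptor hexamer AGGTCA (14%), the GATA motif AGATAA (9.99%), the TATA box TATAAA (12.4%), the GC box GGGCGG (32.7%) and the GAGA repeat GAGAGAGA (3.26%); no matches overlapped in these 3 windows.
Upk3b chr5:136038246-136038495 (+): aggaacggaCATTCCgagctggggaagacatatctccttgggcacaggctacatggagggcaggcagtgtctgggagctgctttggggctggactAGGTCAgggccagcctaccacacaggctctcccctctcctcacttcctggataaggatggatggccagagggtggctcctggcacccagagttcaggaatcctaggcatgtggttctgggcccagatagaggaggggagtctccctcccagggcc
Aldh1a2 chr9:71215539-71215788 (+): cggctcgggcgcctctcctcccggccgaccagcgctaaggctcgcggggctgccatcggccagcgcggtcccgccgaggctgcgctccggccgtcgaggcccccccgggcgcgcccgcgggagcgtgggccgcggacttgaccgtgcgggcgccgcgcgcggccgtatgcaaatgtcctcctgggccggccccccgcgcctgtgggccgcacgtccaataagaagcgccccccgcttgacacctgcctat
Aldh1a1 chr19:20601718-20601967 (+): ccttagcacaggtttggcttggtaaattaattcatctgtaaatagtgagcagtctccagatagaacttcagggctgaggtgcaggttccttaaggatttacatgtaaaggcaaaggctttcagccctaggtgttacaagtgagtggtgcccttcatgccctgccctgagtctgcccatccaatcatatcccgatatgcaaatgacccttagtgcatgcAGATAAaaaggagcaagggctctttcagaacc
The *Upk3b* window held a TEAD core and a nuclear receptor hexamer, and the *Aldh1a1* window a GATA motif. A second *Aldh1a1* promoter of the table (chr19:20492333-20492582), not printed, held a TEAD core and no GATA motif. The *Aldh1a2* window was 77.6% G and C, against a median of 52.4% over all promoters, and held none of the 6 motifs. A match is a string of letters and not a measured site.

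Per length of transcript, *Upk3b*, a uroplakin first known from the bladder lining, was the most abundant of the 9 in all 4 groups, at 112.2 ± 31.3 RPKM (CPM per kilobase of transcript; SD, n = 3) in controls and 63.6 ± 10.4 RPKM in mutants at E11.5, and 65.9 ± 15.4 and 74.6 ± 2.50 RPKM at E12.5. Its libraries did not overlap with those of the next gene in any group. *Aldh1a2* (50.5 ± 8.02 RPKM in E11.5 controls) and *Tcf21* (49.8 ± 10.6) came next and overlapped with each other in all 4 groups. *Upk1b* (28.9 ± 8.05), *Aldh1a1* (22.9 ± 5.61), *Wt1* (22.7 ± 3.19) and *Lrrn4* (14.5 ± 5.10) formed a middle range in which each overlapped with its neighbour. *Bnc1* (8.34 ± 1.25) and *Msln* (5.23 ± 2.77) were lowest and also overlapped. By E12.5 *Msln* had moved from the last place to the sixth in controls (10.8 ± 0.988 RPKM) and to the fourth in mutants (21.8 ± 6.56), while *Aldh1a1* had moved to the eighth (5.90 ± 0.917 and 7.83 ± 0.700; SD, n = 3 each).

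**Figure D1:**
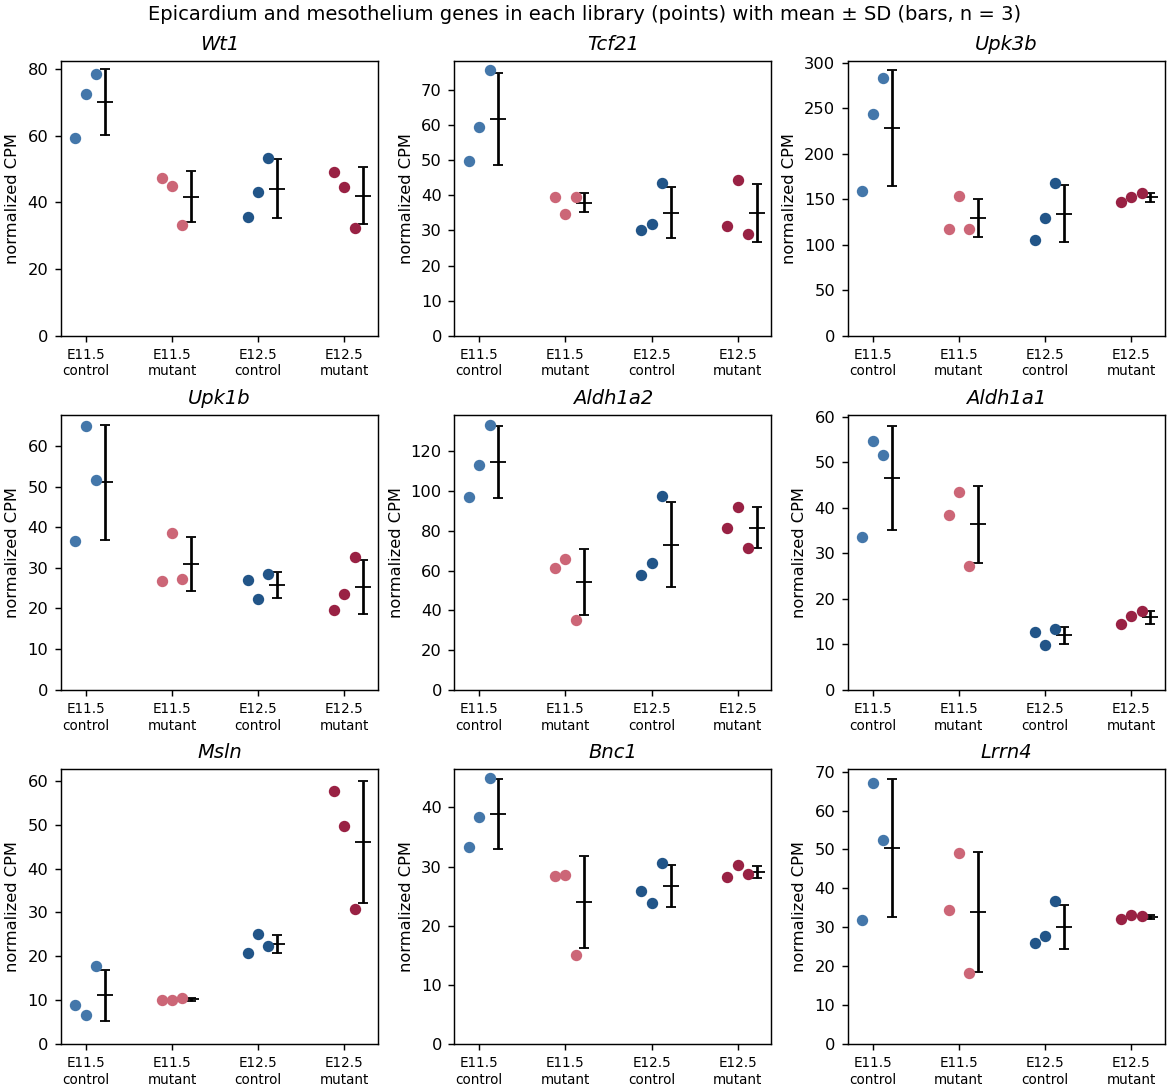
Normalized level (CPM) of the 9 genes, on linear axes from 0, in the 12 libraries (points, in replicate order) with the mean and SD of each group beside them (n = 3). Control libraries at E11.5 lie above all E11.5 mutants for *Wt1*, *Tcf21*, *Upk3b*, *Aldh1a2* and *Bnc1*, and the E12.5 mutants lie above the E12.5 controls for *Msln* and *Aldh1a1*.

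At E11.5 the epicardial genes stood lower in mutant than in control hearts, but no difference passed the test over all genes. Calls required an adjusted p no higher than 0.05 together with a change of 1.5-fold or more in edgeR's quasi-likelihood test, which called 14 of 12197 genes (0.115%) and 0 of the 9. At an unadjusted p under 0.05, 6 of the 9 were lower, as were 5.18% of all genes. All 3 mutants were below all 3 controls for 5 of the 9, against 8.62% of all genes, and the fitted fold change was below 0 on the log2 scale for 9 of 9, against 50% of all genes. The median log2 fold change of the 9 was -0.69, that of all genes 0.0001. In RNA of whole hearts, fewer cells of a type and less RNA per cell cannot be told apart.

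Among the transcription regulators, *Wt1*, a zinc finger gene of the epicardium, stood at 59.3, 72.6 and 78.5 CPM in the 3 E11.5 controls and at 47.3, 44.8 and 33.1 CPM in the 3 mutants. The groups did not overlap, and the highest mutant was replicate 1. The fitted log2 difference was -0.74 (SE 0.17, edgeR adjusted p = 0.152). *Tcf21*, a helix-loop-helix gene of epicardium and fibroblast precursors, stood at 49.9, 59.4 and 75.9 CPM in controls and at 39.6, 34.7 and 39.4 CPM in mutants. These did not overlap either, with mutants close to each other and controls spread (log2 fold change -0.69, SE 0.17, edgeR adjusted p = 0.167). *Bnc1*, which codes for the zinc finger protein basonuclin 1, stood at 33.3, 38.4 and 45.0 CPM in controls and at 28.5, 28.6 and 15.1 CPM in mutants. All mutants were below all controls and replicate 3 was far below the other mutants (log2 fold change -0.68, SE 0.24, edgeR adjusted p = 0.340).

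Of the retinaldehyde dehydrogenases, *Aldh1a2* had the lowest ratio of the 9. It stood at 97.1, 112.9 and 133.3 CPM in E11.5 controls and at 61.5, 65.8 and 35.03 CPM in mutants. The lowest control lay well above the highest mutant, and the fitted log2 difference was -1.07 (SE 0.23, a 2.10-fold lower level, adjusted p = 0.131 with edgeR). *Aldh1a1*, its paralog, stood at 33.5, 54.7 and 51.5 CPM in controls and at 38.4, 43.5 and 27.1 CPM in mutants. Control replicate 1 lay within the mutants, and the difference of -0.35 (log2, SE 0.22, edgeR adjusted p = 0.696) was within the spread of the libraries.

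Among the surface proteins, *Upk3b* stood at 158.4, 243.4 and 283.3 CPM in E11.5 controls and at 117.0, 153.9 and 117.5 CPM in mutants. The groups were separate, though control replicate 1 and mutant replicate 2 were nearly equal (log2 fold change -0.81, SE 0.21, edgeR adjusted p = 0.204). *Upk1b*, a tetraspanin that pairs with uroplakins, stood at 36.5, 65.0 and 51.6 CPM in controls and at 26.8, 38.5 and 27.3 CPM in mutants. Here control replicate 1 fell below mutant replicate 2 (log2 fold change -0.72, SE 0.22, edgeR adjusted p = 0.281). *Lrrn4*, a leucine-rich repeat membrane protein of mesothelium, overlapped widely, with 31.8, 67.1 and 52.4 CPM in controls and 34.3, 49.2 and 18.2 CPM in mutants (log2 fold change -0.56, SE 0.35, edgeR adjusted p = 0.688). *Msln*, which codes for the surface protein mesothelin, stood at 8.89, 6.59 and 17.7 CPM in controls and at 9.94, 10.03 and 10.5 CPM in mutants, so that the mutants lay inside the range of the controls (log2 fold change -0.11, SE 0.33, edgeR adjusted p = 0.957).

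Sex moved with genotype at this stage, so the values were also taken with a sex term. All 3 controls and mutant replicate 3 alone were male, so the genotype effect of that fit is this single library against the controls, as it is in male libraries alone. Replicate 3 was also the shallowest library and the lowest mutant for *Aldh1a2*, *Bnc1*, *Wt1*, *Lrrn4* and *Aldh1a1*. Against the controls replicate 3 had a median log2 fold change of -0.94 over the 9 genes, with -1.69 for *Aldh1a2*, -1.35 for *Bnc1* and -1.06 for *Wt1*. In male libraries alone no spread among mutants stands behind these values. With the sex term that spread comes from the female mutants only. DESeq2 called 4 of the 9 in the 6 libraries, namely *Aldh1a2*, *Wt1*, *Upk3b* and *Tcf21*, while it called 248 genes in all against edgeR's 14. Without replicate 3 of the mutants, the median log2 fold change was -0.60 and 6 of the 9 had an unadjusted p under 0.05, as did 2042 genes in all against 1242 with it. Without control replicate 3 it was -0.57, with 5 of the 9. Without control replicate 1 or mutant replicate 1, the E11.5 libraries with the higher lung and foregut sums (the latter also with the higher hepatocyte sum), it was -0.83 and -0.73, with 8 and 6 of the 9. Over all genes, 747 had such a p without control replicate 3, 958 without control replicate 1 and 1114 without mutant replicate 1.

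**Figure D2:**
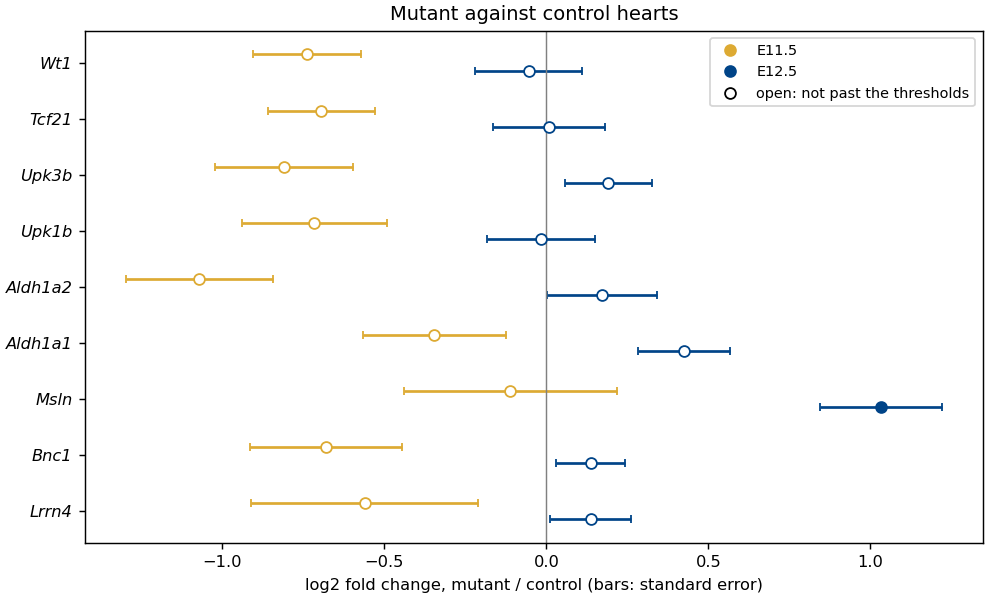
Fitted log2 fold change of mutant over control hearts for the 9 genes at E11.5 (yellow) and E12.5 (blue), with bars of the standard error from edgeR. Filled points passed the thresholds, which was the case for *Msln* at E12.5 alone, and open points did not; all 9 E11.5 values are below 0, from -1.07 to -0.11.

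At E12.5 a single gene of the set was called, *Msln*, which was higher in mutant hearts. Over all 12257 genes tested, 1.59% were called higher and 1.36% lower. *Msln* stood at 20.8, 25.0 and 22.4 CPM in controls and at 57.7, 49.9 and 30.8 CPM in mutants. All mutants were above all controls, with mutant replicate 3 nearest to them. The fitted log2 difference was 1.03 (SE 0.19, a 2.04-fold higher level, edgeR adjusted p = 0.0140); an exact two-sided permutation test of the CPM values gave p = 0.1, the smallest that 3 against 3 libraries allow. The call was lost without control replicate 1 (adjusted p = 0.0695), with all 12 libraries in a single fit (adjusted p = 0.108) and in female libraries alone, 2 against 2 (log2 fold change 0.83, adjusted p = 0.0627), all with edgeR. Mutant replicate 1, the highest for *Msln*, also had the higher hepatocyte sum, and without it the log2 fold change was 0.84 (edgeR adjusted p = 0.0476).

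*Aldh1a1* was the other gene without overlap at E12.5, a pattern that 12.1% of all genes showed in this direction. It stood at 12.7, 9.87 and 13.4 CPM in controls and at 14.4, 16.1 and 17.2 CPM in mutants. The step between the groups was small, and the log2 fold change of 0.42 (SE 0.14, edgeR adjusted p = 0.117) was not called.

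The remaining 7 genes had log2 fold changes between -0.05 and 0.19 at E12.5, with standard errors of 0.11 to 0.17, and overlapping groups. *Wt1* stood at 35.7, 43.1 and 53.3 CPM in controls and at 49.0, 44.7 and 32.4 CPM in mutants. *Aldh1a2* stood at 57.7, 63.8 and 97.7 CPM in controls and at 81.4, 91.9 and 71.3 CPM in mutants. For *Upk3b* the values were 105.6, 129.2 and 167.7 CPM in controls and 146.3, 152.8 and 156.3 CPM in mutants. Control replicate 3, the male control, was the highest control for all 3 of these genes, and mutants lay within the range of the controls except for *Wt1* replicate 3. *Tcf21* (30.1, 31.8 and 43.5 CPM in controls, 31.4, 44.5 and 29.0 CPM in mutants) and *Upk1b* (26.9, 22.3 and 28.4 CPM against 19.7, 23.5 and 32.7 CPM) were spread more widely among mutants. *Bnc1* (25.8, 23.7 and 30.5 CPM against 28.2, 30.2 and 28.7 CPM) and *Lrrn4* (25.9, 27.6 and 36.6 CPM against 32.1, 33.0 and 33.0 CPM) were tight among mutants and overlapped with controls. Without control replicate 3, the median log2 fold change of the 9 rose from 0.14 to 0.31, and *Msln* remained the call. In that fit 6 of the 9 had an unadjusted p under 0.05 (edgeR), against 2 with that library. Over all genes, 2696 of 12267 had such a p without it and 2621 of 12257 with it. Mutant replicate 3 had the higher lung and foregut sum. Without that mutant the median was 0.14 and *Msln* was called (log2 fold change 1.25). There 2 of the 9 had an unadjusted p under 0.05 (edgeR), as did 2440 of 12254 genes.

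Whether the mutant effect differed between stages was tested directly, as the E12.5 effect minus the E11.5 effect in a fit of all 12 libraries. No gene passed this test (0% of 12270 genes with edgeR, 551 of them at an unadjusted p under 0.05, 41 calls with DESeq2 and 10 without E11.5 mutant replicate 3), and none of the 9 passed in any of these fits. The difference was above 0 for 9 of 9 genes, with a median of 0.77 on the log2 scale. At an unadjusted p under 0.05 and above 0 stood 8 of the 9, against 2.72% of all genes. The largest differences were those of *Aldh1a2* (1.24, SE 0.33, edgeR adjusted p = 0.488), *Msln* (1.14, SE 0.42, edgeR adjusted p = 0.956) and *Upk3b* (1.0005, SE 0.28, edgeR adjusted p = 0.598). With a sex term 5 of the 9 had an unadjusted p under 0.05, and so had 4 without E11.5 control replicate 3 and 5 without E12.5 control replicate 1, control replicate 2 or mutant replicate 2. Over all genes the counts were 445 with a sex term and 362, 397, 412 and 407 in the other fits, in that order. The difference of effects is made from the same libraries as the values of each stage and adds no further samples to them.

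In control hearts 4 of the 9 genes were called lower at E12.5 than at E11.5, against 1.27% of all 12270 genes. They were *Aldh1a1*, *Upk1b*, *Tcf21* and *Upk3b*, and 5 of the 9 had all E12.5 libraries below all E11.5 libraries, as did 19.2% of all genes. *Aldh1a1* fell most, from 33.5 to 54.7 CPM over the E11.5 controls to 9.87 to 13.4 CPM at E12.5 (log2 fold change -1.96, SE 0.21, a 3.88-fold lower level, adjusted p = 0.00106, edgeR). *Upk1b* (-0.98, SE 0.22, adjusted p = 0.0333), *Tcf21* (-0.81, SE 0.19, adjusted p = 0.0379) and *Upk3b* (-0.76, SE 0.20, adjusted p = 0.05) also fell in the edgeR test; the *Upk3b* groups overlapped, since E12.5 control replicate 3 (167.7 CPM) was above E11.5 control replicate 1 (158.4 CPM).

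*Wt1* (log2 fold change -0.67, edgeR adjusted p = 0.0602), *Lrrn4* (-0.74, 0.132 by the same test), *Aldh1a2* (-0.64, 0.101) and *Bnc1* (-0.54, 0.106) were not called between control stages. *Msln* was the exception in direction: all E12.5 controls were above all E11.5 controls (log2 fold change 1.05, SE 0.30, edgeR adjusted p = 0.0606), although it was not among the 1.47% of all genes that were called higher. With a sex term *Aldh1a1* alone remained called in controls (-2.07, adjusted p = 0.00332, edgeR). Leaving out single libraries of the fit moved the 4 calls to 2 without E11.5 control replicate 3 and to 1 without E12.5 control replicate 1 or replicate 2. They moved to 2 without E12.5 mutant replicate 1 or replicate 2, and to 8 without E11.5 mutant replicate 3. Calls were counted here in either direction, and the 8 include *Msln*, which was higher at E12.5. Over all genes, the 336 calls moved to 63, 52, 60, 205, 198 and 824 in these fits, in the same order. *Aldh1a1* was called in all 12 fits that left out a library.

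In mutant hearts 2 of the 9 genes were called between stages, against 0.97% of all 12270 genes. *Msln* rose from 9.94, 10.03 and 10.5 CPM at E11.5 to 57.7, 49.9 and 30.8 CPM a day later (fitted log2 difference 2.19, SE 0.30, edgeR adjusted p = 0.00428). *Aldh1a1* fell from 38.4, 43.5 and 27.1 CPM to 14.4, 16.1 and 17.2 CPM (log2 fold change -1.19, SE 0.20, edgeR adjusted p = 0.0154). The *Msln* call held in all 12 fits that left out a library, and that of *Aldh1a1* in 9, being lost without E11.5 mutant replicate 2, E12.5 mutant replicate 1 or E12.5 mutant replicate 2. *Aldh1a2* also had separate groups, with E12.5 mutants above E11.5 mutants (log2 fold change 0.60, SE 0.23, edgeR adjusted p = 0.314), which makes 3 of the 9 without overlap against 17.5% of all genes in either direction. The other 6 genes lay between -0.28 and 0.27 on the log2 scale.

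**Figure D3:**
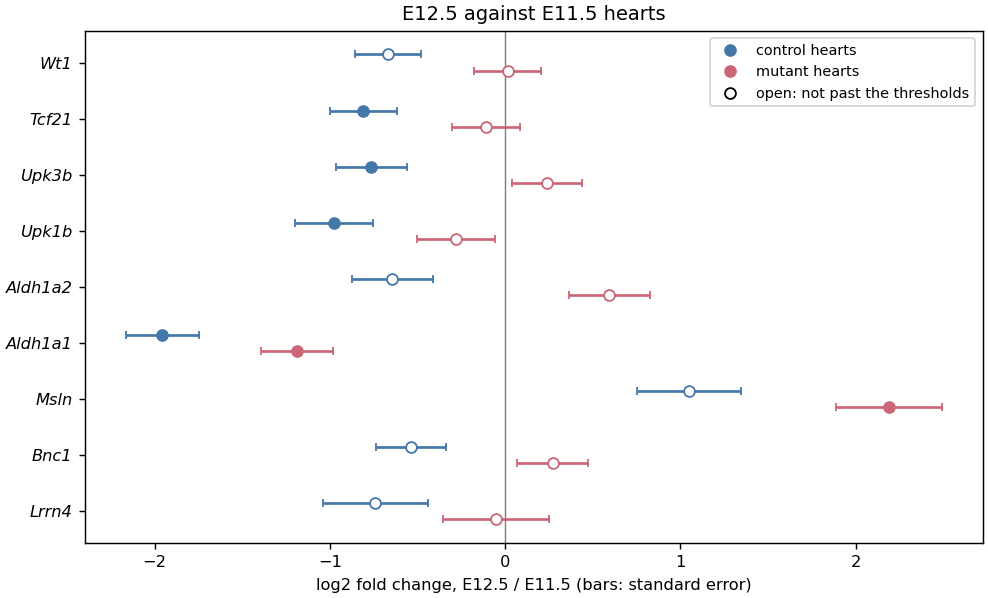
Fitted log2 fold change of E12.5 over E11.5 for the 9 genes in control (blue) and mutant hearts (red), with bars of the standard error from edgeR. Filled points passed the thresholds (4 genes in controls, 2 in mutants), and *Msln* is the gene above 0 in both genotypes that was called in mutants (2.19).

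The 9 genes varied together among libraries of a group to unequal degrees. With the 4 group means removed, the median Pearson r of a gene with the other 8 over the 12 libraries was 0.71 for *Lrrn4*, 0.68 for *Aldh1a2* and *Aldh1a1*, 0.61 for *Upk3b* and *Bnc1*, 0.59 for *Wt1*, 0.41 for *Tcf21*, 0.34 for *Upk1b* and 0.21 for *Msln*. *Msln* was also the gene with a negative median before the means were removed (-0.28). The summed level of the 9 was 508.7, 720.0 and 789.2 CPM in controls and 403.4, 469.0 and 323.2 CPM in mutants at E11.5, and 341.2, 376.4 and 493.7 CPM in controls and 460.2, 486.5 and 431.3 CPM in mutants a day later. The E11.5 controls stood above the E11.5 mutants, and the E12.5 mutants lay inside the range of the E12.5 controls. Of 11450 other genes searched with the group means removed, the most alike to the mean profile of the 9 were *Gpm6a* (r = 0.95), *Snx6*, *Tfg*, *Tbx18* (r = 0.92), *Tecrl*, *Esco1*, *Ssb*, *Psmc6*, *Pus3* and *Bcar3* (r = 0.91). Genes of the wider epicardial and mesothelial list, described next, ranged from *Gpm6a* down to *Bves* (r = -0.47) in likeness to the 9. *Sema3d* (r = 0.79), *Krt7* (0.75), *Itga4* (0.75) and *Ezr* (0.65) varied with the 9. The genes of that list called at E12.5 did not: *Krt8* (r = 0.005), *Krt18* (0.02), *Krt19* (-0.01) and *Gata5* (-0.40). These correlations are descriptions over 12 points, which share library depth and scaling.

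A wider list of 22 epicardial and mesothelial genes, 21 of them in the table, was described in the same way. At E11.5, 0 of the 19 tested were called, 13 were below 0 on the log2 scale, and 6 were lower and 2 higher at an unadjusted p under 0.05 (median -0.43). Over all genes 50% were below 0 and 5.18% were lower at such a p. *Tbx18*, a T-box gene of the epicardium, stood at 144.2 ± 26.9 CPM in controls and at 102.9 ± 18.8 CPM in mutants (SD, n = 3 each; log2 fold change -0.48, edgeR adjusted p = 0.384). At E12.5, 4 of the 20 tested were called, all higher in mutants, against 1.59% of all genes called higher, and 15 were above 0 (median 0.26). These were the simple epithelial keratins *Krt8* (17.6 ± 3.80 to 48.4 ± 7.12 CPM, SD, n = 3 each; log2 fold change 1.48), *Krt19* (1.06) and *Krt18* (0.82), and *Gata5* (0.62), a zinc finger gene of the embryonic heart. The *Krt18* call was lost without control replicate 1, control replicate 2 or mutant replicate 1 (edgeR adjusted p = 0.0515 to 0.0756), while the other 3 held in all 6 fits that left out a library. The keratin *Krt7* stood at 0.46 and had an adjusted p of 0.0407 with edgeR, below the fold threshold. *Ezr* (0.11) and *Bves* (-0.23), which with *Tbx18* (0.14) were the most abundant of the list, were not called.

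*Krt7* had all E11.5 mutants below all controls (log2 fold change -0.64) and all E12.5 mutants above all controls, while *Krt8*, *Krt19* and *Gata5* had all mutants above all controls at both stages (0.30, 0.66 and 0.54 at E11.5). In the list, all mutants were below all controls for 6 of 19 at E11.5 and above them for 4. At E12.5 the counts were 2 and 8 of 20. Over all genes, 8.62% were so below at E11.5 and 12.1% above at E12.5, and the other shares were not counted. In controls 4 of the 20 were called lower at E12.5 than at E11.5, against 1.27% of all genes. The test of the effect difference between stages called 0 of the 20, of which 9 were above 0 at an unadjusted p under 0.05, against 2.72% of all genes.

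**Figure D4:**
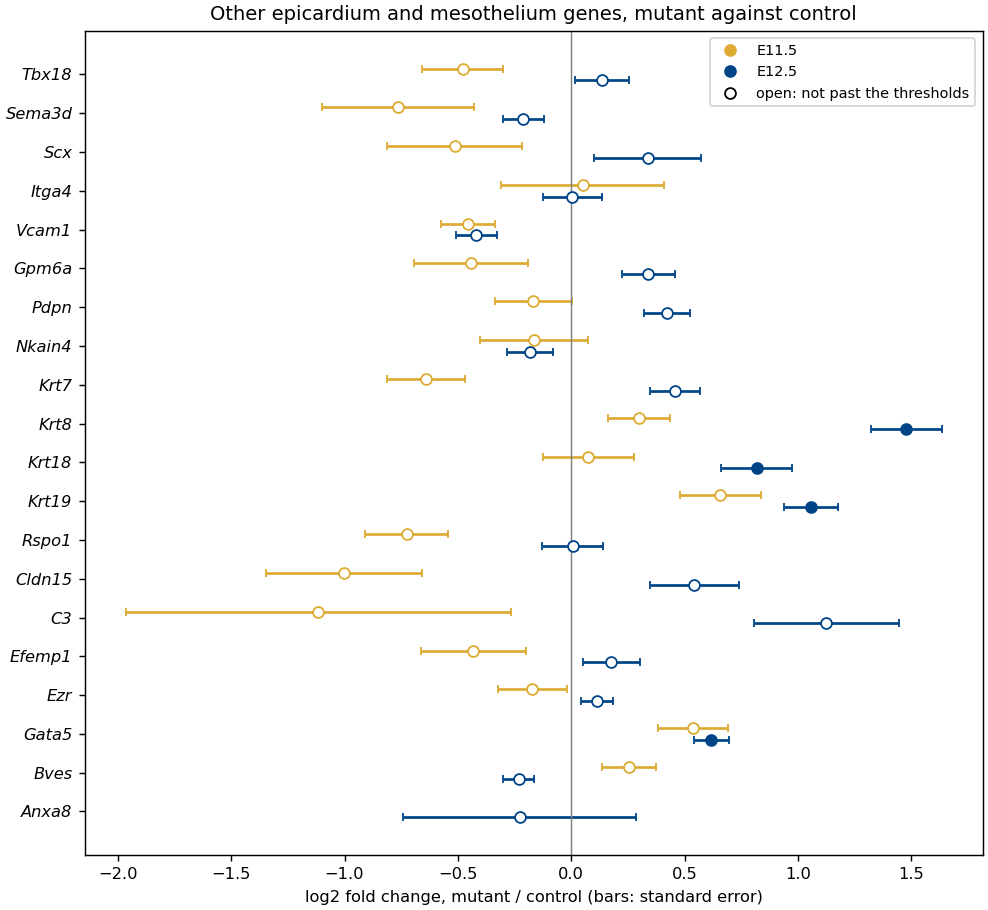
Fitted log2 fold change of mutant over control hearts for the 20 tested genes of the wider epicardium and mesothelium list at E11.5 (yellow) and E12.5 (blue), with bars of the standard error from edgeR. Filled points passed the thresholds: *Krt8*, *Krt18*, *Krt19* and *Gata5* at E12.5.

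Genes of mesenchyme that the epicardium can give rise to were lower in mutants at both stages in fitted value, for 11 of 13 tested genes at E11.5 (median -0.53, 0 called) and 13 of 14 at E12.5 (median -0.28, 2 called). Over all genes 50% were below 0 at E11.5 (median 0.0001). At E12.5 the median of all genes was -0.0018 and 1.36% were called lower. The 2 called lower at E12.5 were *Pdgfrb*, a growth factor receptor of mural cells (72.3 ± 11.6 CPM in controls, 44.3 ± 1.97 in mutants, SD, n = 3 each; log2 fold change -0.69), and *Postn*, the matrix protein periostin (549.5 ± 89.5 and 355.7 ± 55.8 CPM; -0.61). The *Postn* call held in 2 of 6 fits that left out a library, those without control replicate 3 or mutant replicate 2, and was lost in the others (edgeR adjusted p = 0.0573 to 0.0922), while that of *Pdgfrb* held in 6 of 6. Of the most abundant in this list, *Col1a1* had a log2 fold change of -1.12 in the younger hearts (edgeR adjusted p = 0.187) and -0.21 in the older, *Col3a1* -0.32 and -0.19, and *Fn1* 0.05 and 0.11, none called. The mesenchyme list holds genes that cushion cells and other fibroblasts also express.

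Of 14 genes of retinoid transport, synthesis, breakdown and receptors, 10 could be tested and 0 were called at either stage, with a median of -0.37 for E11.5 and -0.10 for E12.5. The log2 fold changes at E11.5 and E12.5 were 0.39 and 0.21 for *Rara* and 0.04 and -0.17 for *Rxra*, which encode nuclear receptors of the pathway. *Aldh1a3*, the third retinaldehyde dehydrogenase, held at most 23 counts in a library. Among relatives of the 9 genes, *Upk1a* held 5 to 40 counts, *Upk2* at most 6 and *Upk3a* at most 5, so nearly all uroplakin counts came from *Upk3b* and *Upk1b*. *Lrrn2*, a relative of *Lrrn4*, was called lower in mutants at E12.5 (8.96 ± 0.348 to 5.72 ± 0.234 CPM, SD, n = 3 each; log2 fold change -0.63, edgeR adjusted p = 0.0381), but the call was lost in each of the 6 fits that left out a library (adjusted p = 0.061 to 0.12). *Aldh1b1* and *Aldh2*, the most abundant relatives, were not called.

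Markers of other cell types moved with genotype as well. Over all genes, 50% were below 0 at E11.5, and 1.36% were called lower at E12.5. The summed level of 7 macrophage genes was 32.6 to 86.2 CPM in E11.5 controls and 16.6 to 19.8 CPM in mutants, and 86.5 to 111.4 against 43.8 to 60.3 CPM at E12.5; 6 of 6 tested genes were below 0 at both stages, and *Csf1r*, *Cx3cr1*, *Mrc1* and *Tyrobp* were called lower at E12.5. The *Mrc1* call held without any single library. The *Csf1r* call held only without control replicate 2 or mutant replicate 1 and that of *Cx3cr1* only without mutant replicate 1, while *Tyrobp* was not called in any of the 6 such fits (edgeR adjusted p = 0.0533 to 0.135). Of the 10 endothelial and endocardial genes tested, 10 were above 0 and 0 called at E11.5 (summed 1283 to 1610 CPM in controls, 1544 to 2224 in mutants), and 8 above 0 at E12.5 (1702 to 1714 and 1582 to 1996 CPM). Red cell genes were called lower in mutants at E12.5 for 4 of 6, namely *Hba-a1*, *Hbb-y*, *Hba-x* and *Slc4a1* (summed 3563 to 5597 CPM in controls, 1901 to 2539 in mutants), and 0 of 6 at E11.5 (3428 to 4455 and 3650 to 4598 CPM). Their part in the values of the 9 genes was not tested.

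**Figure D5:**
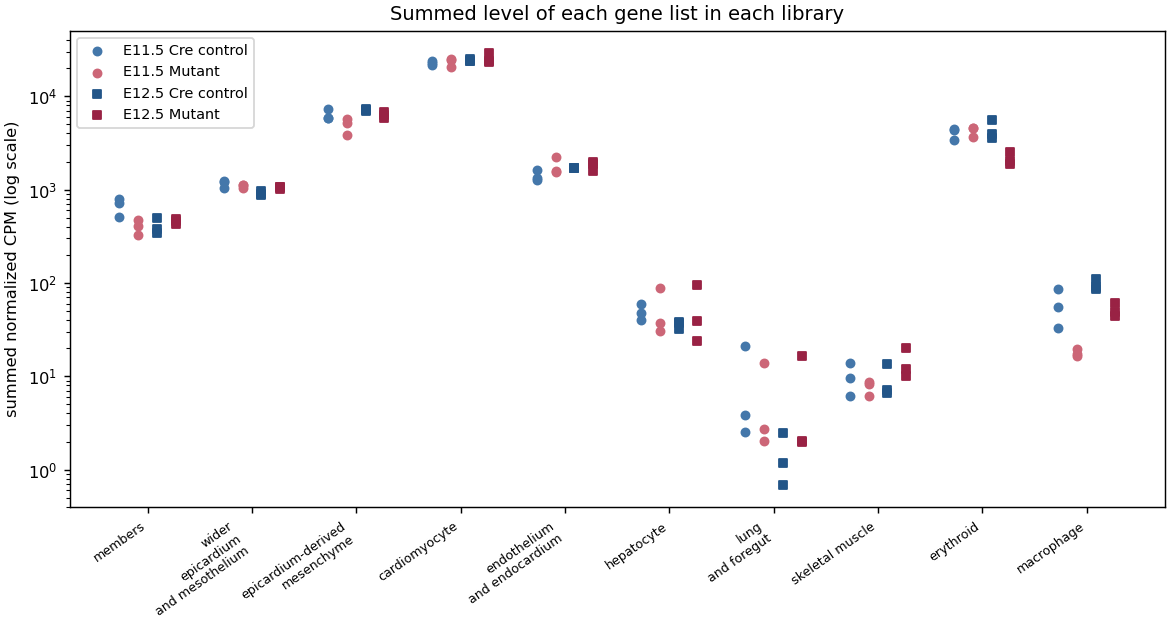
Summed normalized CPM of the gene lists other than the retinoid genes and the relatives of the 9, on a log axis, in each of the 12 libraries (circles E11.5, squares E12.5; blue controls, red mutants). The 9 genes (first column) are lower in E11.5 mutants (323.2 to 469.0 CPM) than in E11.5 controls (508.7 to 789.2 CPM), and macrophage genes are lower in mutants at both stages.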

How the data were processed

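RNA-seq of embryonic hearts was analysed in 12 libraries (3 for each genotype and stage). The submitters' processing notes name Bowtie2 2, DESeq and the mm10 build for these libraries, and per the study's methods the authors aligned paired reads with Bowtie and normalised with DESeq; the strand setting was not given in the sources used here. The deposited values, named RPKM by the authors, equalled a count times the gene length times a library factor. With the authors' mean counts per group, whole counts were recovered for 17827 of 19424 genes present in both kinds of file (1597 had no count), with a largest distance from a whole number of 4.22e-10. The deposited group means, entered under expected counts because a mean need not be whole, were the authors' plain means of unscaled counts, and the recovered counts met them within 3.33e-05. The deposited fold changes and p-values of the authors' comparisons were not used.

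Counts were rounded to whole numbers, scaled by TMM and tested with edgeR 4.0.16 (quasi-likelihood, R 4.3.3) on genes whose mean RPKM reached 0.5. P-values were adjusted over all genes by the Benjamini-Hochberg method, and calls needed an adjusted p no higher than 0.05 and a 1.5-fold change or more (for the difference between stages, the adjusted p alone). Genotypes were compared in the 6 libraries of a stage, and stages in a fit of all 12. Standard errors were the log2 fold change divided by the root of F. Fits were tested on simulated data. Alternatives used DESeq2 1.42.0, limma 3.58.1 on log2(RPKM + 0.5, 0.1 or 1), no filter, a mean RPKM floor of 5, median-ratio scaling, a sex term, a replicate block and single libraries left out. The 9 genes and the lists were chosen with earlier results of these data known. The text names the 9 genes, the genes of each list that were called between genotypes or had the 3 highest mean levels, and the 10 most alike genes; others, such as *Krt7*, were named after their values were seen. A gene that this rule names is not reported here. Separate embryos are not stated for each library, so p-values measure the spread between these libraries, which may be technical in part. By Y-linked counts, E11.5 mutants, E12.5 controls and E12.5 mutants each held libraries of both sexes. Such libraries cannot all come from the same embryo. For the E11.5 controls, all male, this cannot be told.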

Additional observations from a re-analysis of the deposited data

Results flagged for a closer look

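The difference of the mutant effect between stages was singled out for *Hba-a1*, an alpha globin gene: every E11.5 mutant was above every E11.5 control and every E12.5 mutant below every E12.5 control, a difference of -1.03 on the log2 scale (unadjusted p = 0.000375, adjusted p = 0.286 in edgeR's quasi-likelihood test), which did not pass the threshold. Separate groups at both stages, in opposite directions, were also met by 3 genes of the wider epicardial and mesothelial list. These genes were picked by this pattern, and the share of all genes that meet it was not counted. *Krt7* and the tight junction gene *Cldn15* were lower in all mutants at E11.5 and higher in all at E12.5, with differences of 1.10 and 1.55 on the log2 scale (adjusted p = 0.265 and 0.384 in edgeR's quasi-likelihood test). *Bves*, a membrane protein gene of heart muscle and epicardium, went the opposite way by -0.49 (adjusted p = 0.396, edgeR). With DESeq2 *Hba-a1* (adjusted p = 0.00677), *Krt7* (adjusted p = 0.00458) and *Bves* (adjusted p = 0.0208) passed, and *Cldn15* did not.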

How the results depend on the processing

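Of the 9 genes, 0 were called between genotypes at E11.5, against 1 with no filter on low counts (*Aldh1a2*), 4 with DESeq2, 2 with a sex term, 1 with all 12 libraries in a single fit and 3 in male libraries only; the last setting and the female one were chosen after seeing the data. At E12.5 the 1 call became 0 with all 12 libraries in a single fit and in female libraries only, and 0 to 1 with single libraries left out. The 4 calls between control stages, counted in either direction, became 7 with DESeq2, 1 with a sex term and 1 to 8 with libraries left out. The 2 between mutant stages became 1 to 2 with libraries left out. Over all genes the control stages had 701 calls with DESeq2 and 67 with a sex term, against 336. For the 9 genes the difference of effects gave 0 calls in all 21 alternatives. Over all genes it gave 41 with DESeq2 and 10 without E11.5 mutant replicate 3. Directions turned for values near 0: *Msln* at E11.5 was 0.0021 and 0.0109 with limma at pseudocounts of 0.5 and 0.1, 0.0052 with the replicate block and -0.38 to 0.40 with libraries left out; *Lrrn4* between mutant stages was 0.0595, 0.0672 and 0.0513 with limma at 0.5, 0.1 and 1 and -0.34 to 0.31 with libraries left out; *Wt1* was -0.0001 there with a sex term (-0.12 to 0.17 with libraries left out) and -0.19 to 0.11 at E12.5. *Tcf21* ranged from -0.33 to 0.0066 between mutant stages and from -0.20 to 0.20 at E12.5, and *Upk1b* at E12.5 from -0.24 to 0.13 (0.21 in female libraries). At E11.5 *Hba-x* was -0.13 with a sex term and -0.13 in males (-0.0064 to 0.23 with libraries left out), *Slc4a1* -0.29 in both, *Hbb-y* -0.11 to 0.0799 and *Krt18* -0.14 to 0.22. The cause of these changes was not tested. Over all genes, edgeR's 14 calls at E11.5 were 248 with DESeq2, 221 with all libraries in a single fit, 29 with a sex term, 104 in male libraries only and 0 to 15 with libraries left out; the 362 at E12.5 ranged from 132 to 613, the 336 between control stages from 52 to 825 and the 119 between mutant stages from 22 to 264. Whether replicate numbers pair the libraries is not stated by the labels. At E11.5 same-numbered deviations correlated at -0.09, 0.46 and 0.31, and unlike-numbered ones at -0.55 to 0.29. At E12.5 same-numbered deviations correlated at 0.03, 0.07 and -0.01, and unlike-numbered ones at -0.10 to 0.06. With a replicate block 0 of the 9 genes were called at E11.5, 1 at E12.5 and 0 for the difference of effects, 5 between control stages and 2 between mutant stages, with 73 and 424 genes in all at E11.5 and E12.5.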
